A study of Mus musculus with 2 samples.

Results

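The myogenic and MEF2 transcription factors are described here by 9 genes, Myod1, Myog, Myf5, Myf6, Mef2a, Mef2c, Mef2d, Pax7 and Six4, in an array study of C2C12 cells, a mouse myoblast line that fuses into myotubes when serum is lowered. Every probe set (several short probes that together report on 1 stretch of a transcript) whose only gene symbol in the platform annotation was one of these names was taken, which gave 25 of 45101 probe sets and all 9 listed genes of 18193 genes with a symbol of their own. One array held cells in which Lrrfip1 was targeted by a hairpin, labelled shLrrfip1a, and the other held cells with the control hairpin, spelled shLCUI in the sample labels; both cultures had been grown in 10% fetal bovine serum and then differentiated for 5 days in 2% horse serum. Neither the way the hairpins were delivered nor whether the cells were a clone or a pool is given in the sources used here. Each group had 1 array, so no difference has a replicate check, no p-value or error between cultures can be given, and every call is one of size alone.

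Skeletal muscle identity is set by a small family of basic helix-loop-helix (bHLH) factors, Myf5, Myod1, Myog and Myf6, which pair with E proteins and bind E-boxes in muscle genes. Myf5 and Myod1 act early and commit cells to the lineage, Myog drives terminal differentiation and Myf6 (MRF4) acts late and in fibres. MEF2 proteins are MADS-box factors that bind AT-rich sites beside E-boxes and strengthen the bHLH factors, Pax7 marks satellite cells, the resident stem cells of muscle, and Six4 is a homeobox factor that binds MEF3 sites. The Myog promoter is a textbook meeting point of these proteins, since E-boxes, a MEF2 site and a MEF3 site lie close to its start.

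Promoter windows show which members carry the binding letters of other members beside their own start. RefSeq windows of assembly GRCm38.p6, with 250 bases before and 50 after an annotated start, were held for 7 of the 9 genes. Each was searched on both strands for the E-box CANNTG, for the MEF2 core TANNNNTA in which each N is an A or a T, and for the MEF3 letters TCAGGTT. A MEF3 match on the other strand reads AACCTGA, and no 2 matches overlapped in the windows printed. Myog at chr1:134289754-134290053 (plus strand) and 1 of 3 Mef2c windows, at chr13:83503784-83504083 (plus strand), held all of them. Myf5 at chr10:107486085-107486384 (minus strand) and Pax7 at chr4:139832919-139833218 (minus strand), the genes with the largest differences below, held none. The Mef2d window, another Mef2c window and a Six4 window also held none, and those genes were close to level below. A link between matches and differences was not tested. The sequences run 5′ to 3′ on the strand of the gene, and capitals mark the matches.
Myog: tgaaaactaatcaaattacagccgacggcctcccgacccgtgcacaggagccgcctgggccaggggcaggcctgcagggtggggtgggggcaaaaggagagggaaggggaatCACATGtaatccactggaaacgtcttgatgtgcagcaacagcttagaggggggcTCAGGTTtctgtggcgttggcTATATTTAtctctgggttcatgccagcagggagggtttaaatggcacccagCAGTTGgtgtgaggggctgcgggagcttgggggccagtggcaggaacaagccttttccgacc
Mef2c: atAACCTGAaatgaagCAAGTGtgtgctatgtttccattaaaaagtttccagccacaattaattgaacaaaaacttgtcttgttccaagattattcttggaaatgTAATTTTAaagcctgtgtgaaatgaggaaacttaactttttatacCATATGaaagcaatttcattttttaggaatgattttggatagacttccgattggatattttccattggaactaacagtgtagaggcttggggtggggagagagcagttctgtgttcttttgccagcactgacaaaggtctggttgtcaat
Myf5: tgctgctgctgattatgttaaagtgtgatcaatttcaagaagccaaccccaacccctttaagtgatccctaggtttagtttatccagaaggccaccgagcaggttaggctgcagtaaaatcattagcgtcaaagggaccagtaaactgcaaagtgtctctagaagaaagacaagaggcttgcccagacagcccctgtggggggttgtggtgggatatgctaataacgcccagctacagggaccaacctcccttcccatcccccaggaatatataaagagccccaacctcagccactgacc
Pax7: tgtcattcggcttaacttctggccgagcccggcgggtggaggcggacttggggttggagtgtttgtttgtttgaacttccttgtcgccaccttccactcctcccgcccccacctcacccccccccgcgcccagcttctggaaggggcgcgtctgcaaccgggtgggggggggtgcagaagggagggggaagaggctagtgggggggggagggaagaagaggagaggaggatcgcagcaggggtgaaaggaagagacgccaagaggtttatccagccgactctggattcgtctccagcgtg

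In the Myog window the E-boxes were CACATG at bases 113 to 118 and CAGTTG at bases 239 to 244, counted from 1 at the 5′ end. The MEF3 letters lay at bases 167 to 173 and the MEF2 core TATATTTA at bases 188 to 195. Across 32851 windows of the same length, 72.3% held an E-box, 9.32% the MEF2 core and 4.07% the MEF3 letters, and 0.323% held all 3 motifs. The Mef2a window held a MEF2 core and no other match, 1 of 2 Six4 windows held the MEF3 letters, and the Mef2d window held none of the motifs. A match is a description of letters; no binding was measured.

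The hairpin's own target was checked first. Lrrfip1, which encodes a nucleic acid-binding protein described as a transcriptional repressor, read 62.2% to 70.6% of the control intensity on its 3 probe sets. The log2 differences ran from -0.66 to -0.48, each short of 2-fold. Values below are the deposited linear intensities, and differences are shLrrfip1a minus control of log2(intensity + 16), a scale that understates the change of dim genes. The level filter was the median over all probe sets of the mean of both arrays, an intensity of 52.8, and 14 of the 25 probe sets, from 6 of the 9 genes, lay above it. Myf6, Mef2c and Pax7 had no probe set above it, and no detection calls were among the data used here. Brightness also depends on the probes. The ranks, bands and sums of intensity below therefore describe readings and do not compare RNA amounts between genes.

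Above the filter no member probe set was at least 2-fold higher or lower, against 0.642% higher and 0.601% lower of 19458 probe sets. At 1.5-fold there was 1 lower, that of Myf5 (background 2.36%), and 0 higher (background 2.25%). Of the 14 probe sets, 12 had a log2 difference under 0.5 in size, and 92.9% of all probe sets above the filter did so. Without the filter, 2 of 25 probe sets were at least 2-fold lower (background 0.398%), both of them for Pax7, and 0 were higher (background 0.401%). As deposited, Pax7 and Myf5 were lower, Myod1 and Myog differed in opposite directions by less than 1.5-fold (Myod1 by 0.72 on the log2 scale, past 1.5-fold, with spike-in scaling), and the MEF2 genes, Six4 and the dim Myf6 were close to level.

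**Figure D1:**
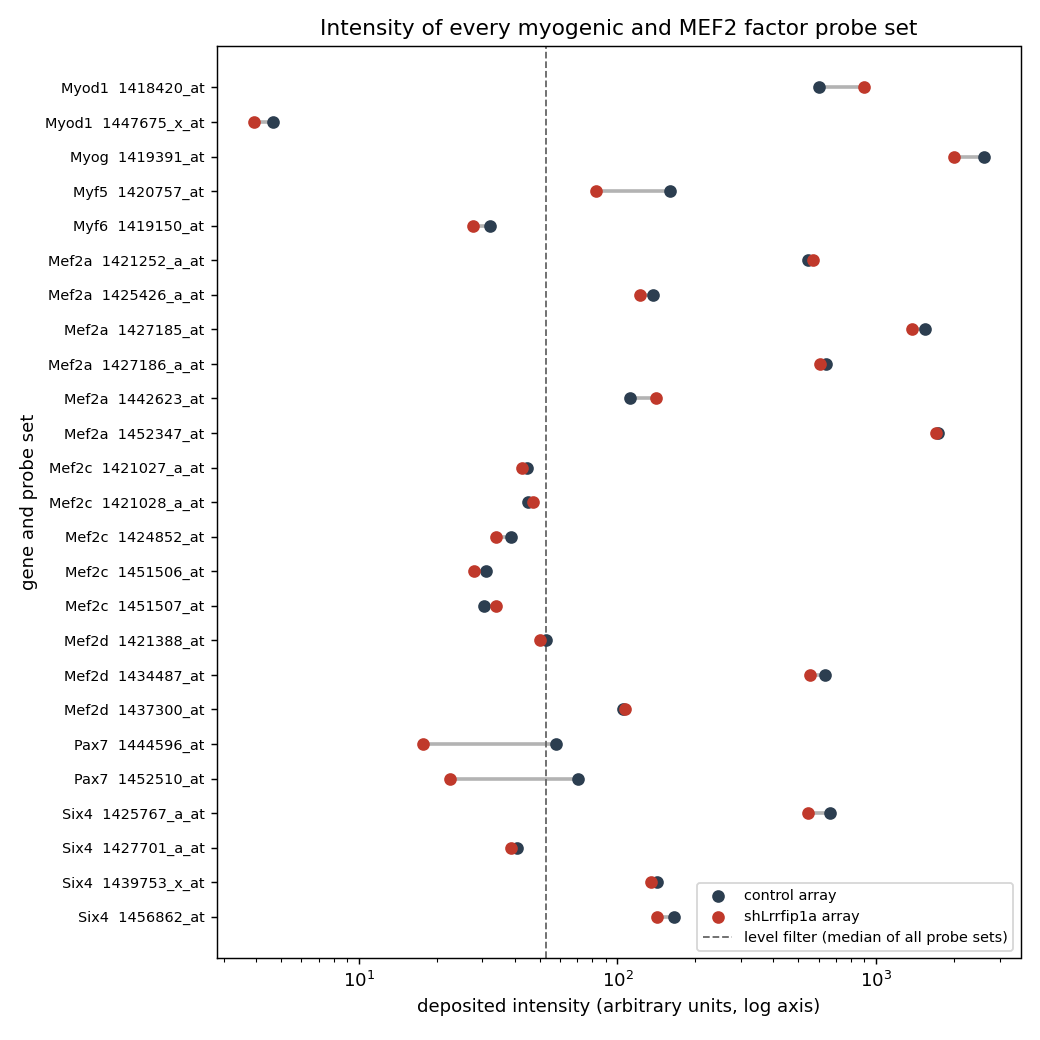
Deposited intensity (log axis) of each of the 25 probe sets on the control array (dark points) and the shLrrfip1a array (red points), with the level filter as a dashed line. The widest gaps are those of Pax7, which read 57.7 and 70.4 in the control against 17.7 and 22.6, and of Myf5, 159 against 82.8.

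Pax7, the paired-box factor of satellite cells, had the largest differences among the members as deposited. Probe set 1452510_at read 22.6 in shLrrfip1a and 70.4 in the control, and 1444596_at read 17.7 and 57.7. The shLrrfip1a readings were 32.1% and 30.7% of the control readings, and the log2 differences were -1.16 and -1.13. Both probe sets were dim: in the control they were brighter than 58.5% and 53.3% of all probe sets, and in shLrrfip1a than 22.6% and 16.4%. Among the 15487 probe sets at or below the filter, 0.142% were at least 2-fold lower. Of 9010 genes with several probe sets, 9 (0.0999%) were at least 2-fold lower on every one, and Pax7 is among these 9. On this scale a 2-fold lower call needs a control intensity above 16, which the dimmest probe sets cannot meet. Both shares include such probe sets, so they do not give the rarity at the level of Pax7, which was not computed. The sizes move with the pseudocount, to -1.60 and -1.65 with 1 and to -0.63 and -0.57 with 64, where neither is 2-fold and Myf5 (-0.61) lies between them. Without detection calls it is not known whether the shLrrfip1a readings exceed background, so these sizes are uncertain. In arrays of whole cultures, fewer cells that express a gene and less RNA of it in each cell cannot be told apart.

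Myf5, the early determination factor, was read by 1 probe set, at 82.8 in shLrrfip1a and 159 in the control. That is 52.0% of the control and a log2 difference of -0.83, short of 2-fold. Of the probe sets above the filter 1.02% had a lower difference, and 1.70% of the 9212 probe sets in the same middle band of level (between the median and the upper quartile of 154) differed by at least as much in either direction. Myf5 and Pax7 were therefore both lower on the shLrrfip1a array, on 3 of 3 probe sets.

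Myf6 is the direct neighbour of Myf5, with 0 protein-coding genes between them in the RefSeq gene table, and its single probe set was dim on both arrays. It read 27.6 and 32.0 (-0.14), brighter than 28.7% and 34.9% of all probe sets. Both neighbours read lower on the shLrrfip1a array as deposited, but the Myf6 difference was small and became 0.02 with spike-in scaling. Of the probe sets at or below the filter, 44.6% differed by at least as much as Myf6 in either direction.

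Myod1, the commitment factor that remains in myotubes, had the highest difference of any member probe set. Probe set 1418420_at read 894 in shLrrfip1a and 602 in the control, 148% of the control and a log2 difference of 0.56. Of the probe sets above the filter, 2.60% had a higher difference. Among the 10246 probe sets above the upper quartile of level, 5.61% differed by at least as much in either direction. The other Myod1 probe set, 1447675_x_at, read 3.92 and 4.65, brighter than 1.37% and 1.85% of all probe sets, close to the floor of 1 in the deposited values. The Myod1 difference therefore rests on 1 probe set.

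Myog, the factor of terminal differentiation, was bright on both arrays, at 2005 in shLrrfip1a and 2612 in the control. The shLrrfip1a value was 76.7% of the control (-0.38), and 6.76% of probe sets above the filter had a lower difference. In the band above the upper quartile of level, 14.4% differed by at least as much in either direction. Myod1 and Myog thus differed in opposite directions. The gap between their differences, which a common shift of an array's log2 values cannot move, was 0.94 on the log2 scale, and the gap between Myod1 and Myf5 was 1.38. Neither gap has a replicate check, and Myog and Myf5 each rest on 1 probe set as well.

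**Figure D2:**
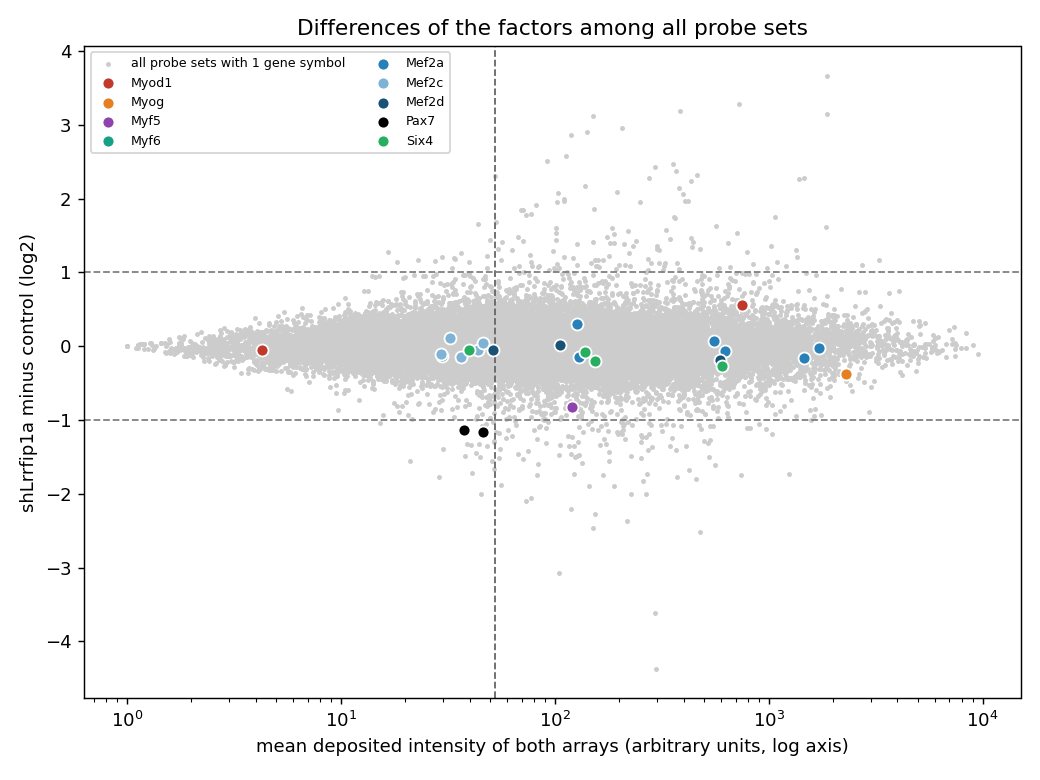
Difference (shLrrfip1a minus control, log2) against mean intensity of both arrays (log axis) for all probe sets with 1 gene symbol (grey) and for the 9 factors (coloured); dashed lines mark 2-fold and the level filter. Pax7 (-1.16 and -1.13) lies below the lower 2-fold line, to the left of the level filter. Myf5 (-0.83) lies in the lower part of the grey cloud and Myod1 (0.56) in its upper part, and the MEF2 genes lie closer to level.

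The MEF2 genes were close to level. Mef2a, the member with the most probe sets, was above the filter on all 6, with intensities of 122 to 1700 in shLrrfip1a and 112 to 1733 in the control. Its differences ran from -0.16 to 0.30, 4 below 0 and 2 above, with a mean of -0.01 ± 0.17 (SD across 6 probe sets, which share 1 RNA sample an array and are no replicates). The brightest, 1452347_at, read 1700 and 1733 (-0.03), and 1427185_at read 1380 and 1546 (-0.16). The highest difference belonged to one of the dimmest, 1442623_at, at 141 and 112. Probe sets of this gene therefore spread over more than the size of most of its single differences.

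Mef2d, the widely expressed member, read 554 and 634 on 1434487_at (-0.19) and 107 and 105 on 1437300_at (0.02). Its remaining probe set, 1421388_at, lay just below the filter at 50.3 and 53.0 (-0.06). Mef2c, the member most tied to muscle and heart development, was dim on all 5 probe sets, at 27.8 to 47.1 in shLrrfip1a and 30.5 to 45.2 in the control. Its differences ran from -0.14 to 0.11, with a mean of -0.03 ± 0.10 (SD over 5 probe sets). All 14 MEF2 probe sets had a log2 difference under 0.5 in size, with a median of -0.05; 9 were lower and 5 higher as deposited. Scaling to the spike-in controls, which adds the same 0.16 to every probe set, gave 2 lower and 12 higher and left their position among all probe sets as it was.

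Six4 was slightly lower on all 4 probe sets as deposited. The brightest, 1425767_a_at, read 547 and 663 (-0.27), followed by 1456862_at at 143 and 166 (-0.19), 1439753_x_at at 134 and 142 (-0.07) and the dim 1427701_a_at at 38.8 and 40.9 (-0.06). The mean was -0.15 ± 0.10 (SD over 4 probe sets), and with spike-in scaling 2 probe sets were lower and 2 higher. No Six4 difference came near 1.5-fold.

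Counted over all members, most probe sets were slightly lower as deposited. Of the 25 probe sets 19 were lower, against 46.9% of all 34945 with 1 gene symbol. Above the filter 10 of 14 were lower (median -0.11), against 49.1% of all 19458 (median 0.01). The 25 probe sets come from 9 genes and are not independent. Median centring, quantile and loess scaling gave 21 of 25 lower each, and 11 of the 14 above the filter. Of all probe sets above the filter, 57.2%, 50.8% and 51.5% were then lower. Under these scalings and the next, shares over all 34945 probe sets were not computed, so the counts of 25 have no matching share. Scaling to 42 bacterial and phage spike-in probe sets, whose median difference was -0.16, gave 8 of 25 lower. Above the filter this was 6 of 14, against 23.7% of all probe sets. That scaling shifts every probe set alike, which put the median of all probe sets above the filter at 0.16 and that of the members at 0.05. Pax7, Myf5 and Myog were lower and the bright Myod1 probe set was higher under all 4 scalings. With spike-in scaling 1 Pax7 probe set fell short of 2-fold (-0.97). The spike-in shift of 0.16 is smaller than each of these differences, so it could not turn their direction. A pseudocount cannot change a sign, so the other pseudocounts are no check of direction either.

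**Figure D3:**
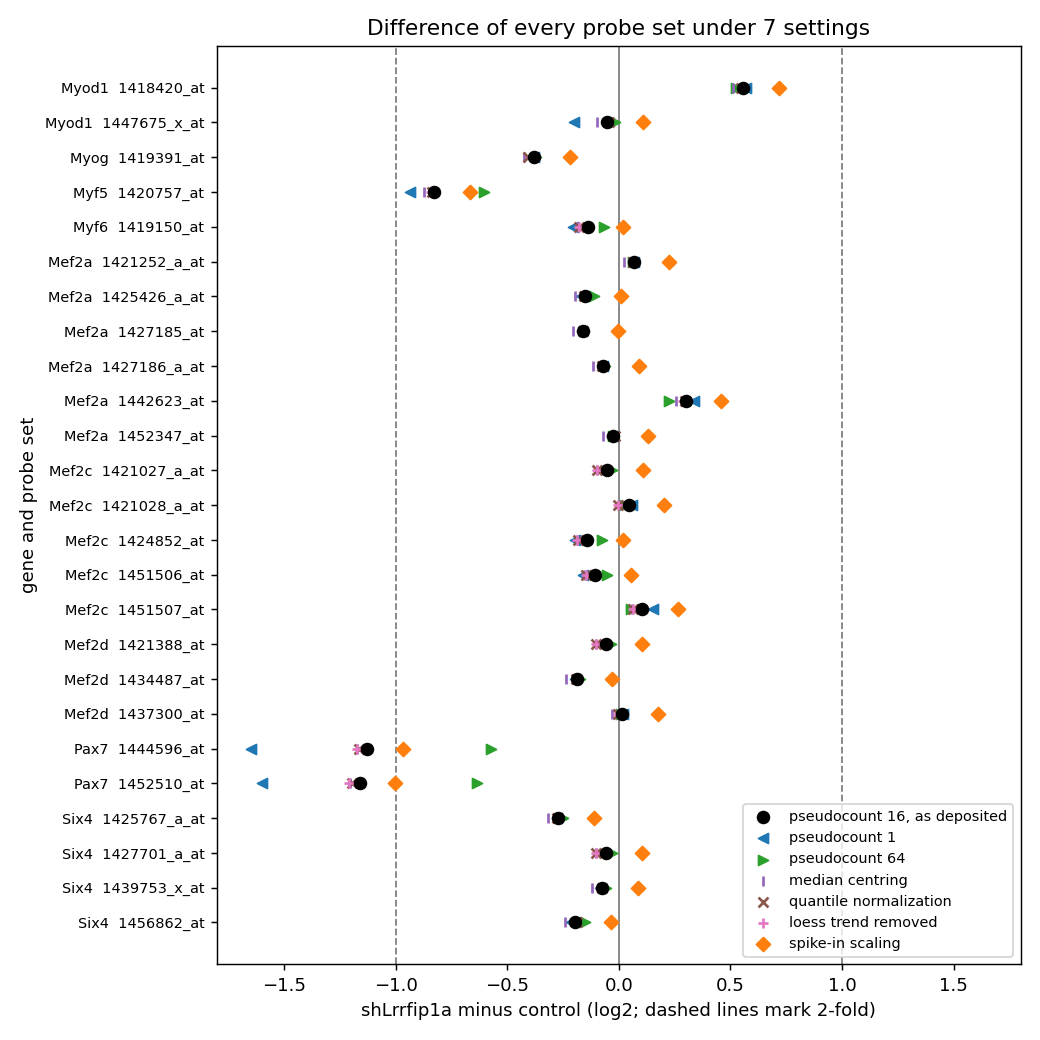
Difference (shLrrfip1a minus control, log2) of each of the 25 probe sets as deposited with a pseudocount of 16 (black) and under 6 other settings; dashed lines mark 2-fold. Pax7 moves most with the pseudocount (-1.65 to -0.57 for 1444596_at), and spike-in scaling (orange) moves every probe set to the right by the same amount.

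The genes around these factors were described through 6 lists, each gene by its brightest probe set. Of 11438 genes above the filter, 0.673% were higher by 2-fold or more and 0.708% lower, with a median of 0.00. Among 17 measured partners and inhibitors of the bHLH factors above the filter, 1 was at least 2-fold higher and 0 lower (median -0.03). The higher one was Id3, an inhibitor that captures E proteins (516 against 178, 1.46), and the related Id1 read 344 against 216 (0.63). Their relative Id2 was level, at 333 against 331 (0.01, with -0.09 on another probe set), as was the dim Id4 (0.05). The E protein genes themselves were close to level, with Tcf3 at -0.18, Tcf4 at -0.03 and Tcf12 at 0.17 (-0.04 to 0.37 on 3 other probe sets). Bhlhe40, a bHLH repressor that responds to hypoxia and the clock, read 685 against 1107 (-0.68), and the zinc finger repressor Zeb1 read 723 against 1040 (-0.51, with -0.42 and 0.06 on other probe sets).

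None of 16 measured cofactors, repressors and kinases of MEF2 above the filter reached 2-fold in either direction (median 0.09). The largest differences were those of the paired acetyltransferases Crebbp (576 against 415, 0.46) and Ep300 (534 against 386, 0.45), followed by the chromatin remodelling subunit Smarcd3 (0.26) and the class IIa deacetylase Hdac5, which represses MEF2 (186 against 225, -0.26). Crebbp had other probe sets from -0.01 to 0.35. Hdac9, both a repressor and a target of MEF2, lay below the filter at 15.1 against 40.0 (-0.85), and is named after its value was seen. In the network of Six4 relatives with Eya, Dach and Pax genes 0 of 10 reached 2-fold (median 0.15), and Nfix, a factor of the switch to fetal muscle, was the most different, at 3293 against 1978 (0.73, with 0.50 to 0.77 on 4 other probe sets). Eya1 and Eya3, co-activators that bind Six4 and its relatives, read 145 against 121 (0.23) and 228 against 265 (-0.21), Six5 was at 0.27, and Pax3, the paralog of Pax7, was dim at 44.2 against 43.1 (0.03).

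All 25 listed target genes of the bHLH factors were above the filter, and 1 was at least 2-fold higher and 0 lower (median -0.09). The higher one was the cell cycle inhibitor Cdkn1c (146 against 50.4, 1.29). Its control reading lay below the filter of 52.8, so it passed the filter only through its high shLrrfip1a reading. The embryonic light chain Myl4 (1482 against 2406, -0.69), cardiac troponin Tnnt2 (1352 against 2115, -0.64) and cardiac actin Actc1 (1725 against 2293, -0.41) were the lowest, although Tnnt2 spread from -0.87 to 0.13 on other probe sets. Of the 25 genes 14 were lower and 11 higher, where 49.3% of all 11438 genes above the filter were lower. Embryonic myosin Myh3 was at 0.04, the light chain Myl1 at -0.02 and the creatine kinase Ckm at 0.38. The fusion micropeptide gene Mymx read 1142 against 1280 (-0.16) and the receptor subunit Chrna1 2222 against 2105 (0.08). With spike-in scaling the median of this list was 0.07, where that of all probe sets above the filter was 0.16.

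Of 12 MEF2 target genes above the filter 0 reached 2-fold, and 8 were lower and 4 higher. Of all 11438 genes above the filter, 49.3% were lower. The list median was -0.23, and -0.08 with spike-in scaling, where that of all probe sets above the filter was 0.16. The lowest were Myoz2, a calcineurin-binding protein of the Z-disc (185 against 289, -0.60), and the M-band genes Myom2 (1322 against 1993, -0.59, with -0.51 and -0.49 on other probe sets) and Myom1 (-0.38), with the Krüppel-like factor Klf6 at -0.43. Among 12 satellite cell and progenitor genes 0 reached 2-fold (median -0.05), and the largest differences went both ways. Notch3 (344 against 584, -0.74, but -0.01 on another probe set) and the HGF receptor Met (196 against 335, -0.73) were lower, whereas Cd34 (386 against 270, 0.49) and Cxcr4 (271 against 196, 0.44) were higher. Pax7 and Myf5 were thus not accompanied by 1 direction across the progenitor list.

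**Figure D4:**
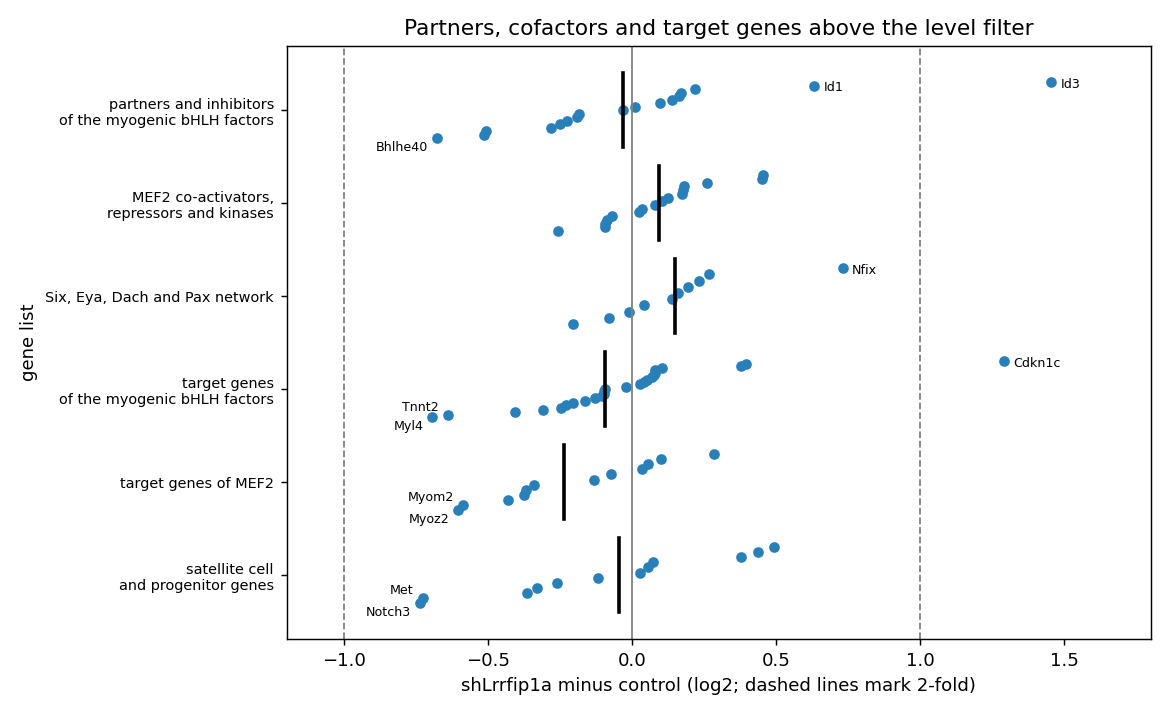
Difference (shLrrfip1a minus control, log2) of each gene above the level filter in 6 lists, by its brightest probe set, with the list median as a black bar and 2-fold as dashed lines. Id3 (1.46) and Cdkn1c (1.29) are the 2 genes past 2-fold, and genes past 1.5-fold are named. Cdkn1c read below the filter on the control array.

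Markers of several cell types were read on both arrays. The filter is no detection call and 11438 of all 18193 genes lay above it, so the counts below do not establish a cell identity. Of 7 skeletal muscle markers 6 were above the filter. Their summed intensities were 9744 in shLrrfip1a and 10361 in the control, with a median difference of -0.09. Of 7 fibroblast markers 6 were above the filter (sums of 22801 and 23541, mostly from the matrix genes Col1a2, Col3a1 and Fn1), and 3 blood and endothelial markers were all below it (sums of 94.2 and 71.9). Of the 4 measured adipocyte markers and the 4 measured osteoblast and chondrocyte markers, 1 each was above the filter, Cebpa (0.19) and Sox9 (0.25), and of the 3 smooth muscle markers Acta2 was higher (7970 against 6655, 0.26) while Myh11 (-0.16) and Cnn1 (-0.14) were lower. The part of such cell makeup in the differences of the 9 factors was not tested.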

How the data were processed

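Total RNA of C2C12 cells was labelled with biotin and hybridised to Affymetrix mouse arrays, per the labels' protocols. For each array the authors deposited 1 linear intensity per probe set; no source used here gives the summary method, background correction, scaling or genome build. The deposited intensities ran from 1 to 9165 (median 53.5) for shLrrfip1a and from 1 to 9861 (median 51.4) for the control, and the number of arrays, 1 a group, limits the precision. Genes were named from the platform annotation, and all 25 member probe sets matched RefSeq (GRCm38.p6) by gene identifier. Differences, levels and calls of size were computed in Python 3.11.15 (numpy 2.4.6, statsmodels 0.14.6 with a loess span of 0.3, pandas 2.3.3), and tested on simulated data. In each list the 4 genes above the filter with the largest absolute differences were named, with any past 2-fold; other genes named were chosen after their values were seen. With 2 arrays no likeness of patterns was computed. The members and lists were chosen with earlier results of these data known. The spike-in controls were the bacterial and phage probe sets without the Trpn sets. Alternatives were 4 scalings, 2 pseudocounts, 2 sizes and 2 filters. Some listed genes are not reported here.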

Additional observations from a re-analysis of the deposited data

How the results depend on the processing

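With 1 array a group, no array can be left out, and the spread between cultures is unknown. No paired analysis was possible because only 1 sample stands on either side. The count of members at least 2-fold lower was 0, but 1 at 1.5-fold and 2 without the level filter; the count at least 2-fold higher was 0 under every setting tried. The gap between Myod1 and Myf5 was 1.13 with a pseudocount of 64, against 1.38. The gap between Myod1 and Myog moved by less than 0.23 (the robust SD of differences above the filter) throughout. The members' median turned from -0.11 to 0.05 with spike-in scaling, which changed the sign of 11 of 25 probe sets. Over all probe sets above the filter, 125 higher and 117 lower at 2-fold came to 75 and 60 with a pseudocount of 64, 438 and 460 at 1.5-fold, 43 and 27 at 3-fold, 77 and 70 with the 75th percentile filter, and 187 and 77 with spike-in scaling, where 70.8% of calls were higher against 51.7% as deposited. Dim probe sets limit what can be said of Myf6, Mef2c and Pax7.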
